A study of Arabidopsis thaliana with 8 samples.

Results

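The chloroplast-encoded genes of Arabidopsis thaliana seedlings are described across 4 genotypes. They were taken as the rows of the count tables whose code begins with ATCG and whose counts summed to 10 or more over the 8 libraries, which gave 124 of the 133 ATCG rows and of the 33518 genes counted. The 9 rows left out were all for transfer RNAs (tRNAs). Just outside the limit lay trnG (ATCG00310) with 5 counts, and just inside it trnN (ATCG01140 and ATCG00990) with 13 counts. The other genes were 33239 nuclear and 146 mitochondrial rows.

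The chloroplast keeps a small genome of its own, which codes for core subunits of the photosystems, the cytochrome b6f complex, the ATP synthase, the NDH complex, the large subunit of Rubisco, part of the chloroplast ribosome and the core of an RNA polymerase. The remaining subunits of the same complexes are nuclear genes, whose products are imported. Chloroplast genes are read by the plastid-encoded polymerase, built from rpoA, rpoB, rpoC1 and rpoC2, and by phage-type polymerases encoded in the nucleus. In tobacco, genes read mainly by the plastid-encoded polymerase were named class I, those read by both polymerases class II, and those read mainly by the nuclear-encoded polymerases class III. In the dark, seedlings hold etioplasts in place of green chloroplasts. Most chloroplast transcripts lack a long poly(A) tail, so libraries made for messenger RNA hold only a part of them.

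Every seedling was of the Col-0 ecotype and was harvested after 5 days in darkness on medium with BRZ, an inhibitor of brassinosteroid synthesis, so all genotypes share the inhibitor. The combined mutant pifq;bzr1-1D carries both sets of alleles. The pifq line carries mutations in the genes PIF1, PIF3, PIF4 and PIF5, whose products, the phytochrome-interacting factors, hold back greening in the dark. The bzr1-1D line carries a dominant allele that keeps the brassinosteroid-responsive factor BZR1 active, and Col-0 is the wild type. Each genotype had 2 libraries of seedlings. Nothing states that these came from separate cultures, so p-values measure only the spread between the libraries, which may be technical. In such bulk samples, a larger share of cells with active plastids and more chloroplast RNA per cell cannot be told apart.

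Library totals were about 16109200 to 34388900 gene counts. In pifq against Col-0, the log2 fold changes of PIF1, PIF3 and PIF5 transcripts were -1.06, -0.85 and -1.60, whereas PIF4 transcripts were higher by 0.85, so PIF4 RNA does not check that label. Levels are given in CPM, a gene's count divided by the library's total gene count and multiplied by 1000000. Transcripts of the protochlorophyllide reductase PORA, a marker of dark-grown seedlings, differed by genotype. They were at 984 and 1016 CPM in pifq;bzr1-1D, 1767 and 1727 CPM in pifq, 2998 and 2948 CPM in bzr1-1D, and 3328 and 3313 CPM in Col-0. The other reductase gene on the list, PORB, which is not taken here to mark the dark-grown state, was at 2112 and 2167, 2662 and 2625, 2471 and 2473, and 2599 and 2563 CPM in the same order. Markers of other cells and tissues also moved with genotype. The root-hair gene PRP3 was at 0 and 0.186 CPM in pifq;bzr1-1D, 2.6 and 2.31 CPM in pifq, 0.117 and 0.288 CPM in bzr1-1D, and 5.0 and 5.79 CPM in Col-0. The seed-storage gene CRA1 was at 15.4 and 15.3 CPM in pifq;bzr1-1D, 23.4 and 24.0 CPM in pifq, 0.703 and 0.741 CPM in bzr1-1D, and 83.9 and 82.8 CPM in Col-0. The other root-hair genes on the list, EXPA7 and COBL9, stayed at or below 0.117 CPM in pifq;bzr1-1D and bzr1-1D, and the other seed-storage gene, CRU3, was at 41.6 and 38.4 CPM in pifq;bzr1-1D, 15.4 and 15.9 CPM in pifq, 0.625 and 0.494 CPM in bzr1-1D, and 89.6 and 86.3 CPM in Col-0. The part of these tissues in the chloroplast results was not tested.

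The files give chloroplast genes by code alone, and the symbols used here were assigned from general knowledge of the locus nomenclature. The inverted repeat of the chloroplast genome holds 18 pairs of identical genes, and 13 of these pairs had identical counts in all 8 libraries. The largest difference in any pair was 0.621%. The copies thus repeat each other's counts, and such genes are given once below, under their first code, which turns the 124 rows into 108 genes. In this count ycf1 (ATCG01000 and ATCG01130) and rps12 (ATCG00065 and ATCG00905) each still have 2 rows, which are counted apart. The 2 codes ATCG00870 and ATCG01270 carry no symbol here and are kept among the other genes.

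Chloroplast rows took 1.5% and 0.934% of the gene counts in the pifq;bzr1-1D libraries, 0.998% and 1.14% in pifq, 0.460% and 0.610% in bzr1-1D, and 0.464% and 0.646% in Col-0. Both genotypes without the PIFs lay above both genotypes with them. Ribosomal RNA (rRNA) rows made up 86.6% to 92.7% of the chloroplast counts in each library, so the share is mostly rRNA. Without rRNA and tRNA rows the share was 0.102% and 0.0782% in pifq;bzr1-1D, 0.105% and 0.102% in pifq, 0.0506% and 0.0502% in bzr1-1D, and 0.0584% and 0.0625% in Col-0. Relative to Col-0 the mean protein-coding share was 1.71-fold in pifq and 0.833-fold in bzr1-1D. The mitochondrial share was 0.0363% and 0.0349% in pifq;bzr1-1D, 0.0282% and 0.0298% in pifq, 0.0404% and 0.0458% in bzr1-1D, and 0.0288% and 0.0338% in Col-0.

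**Figure D1:**
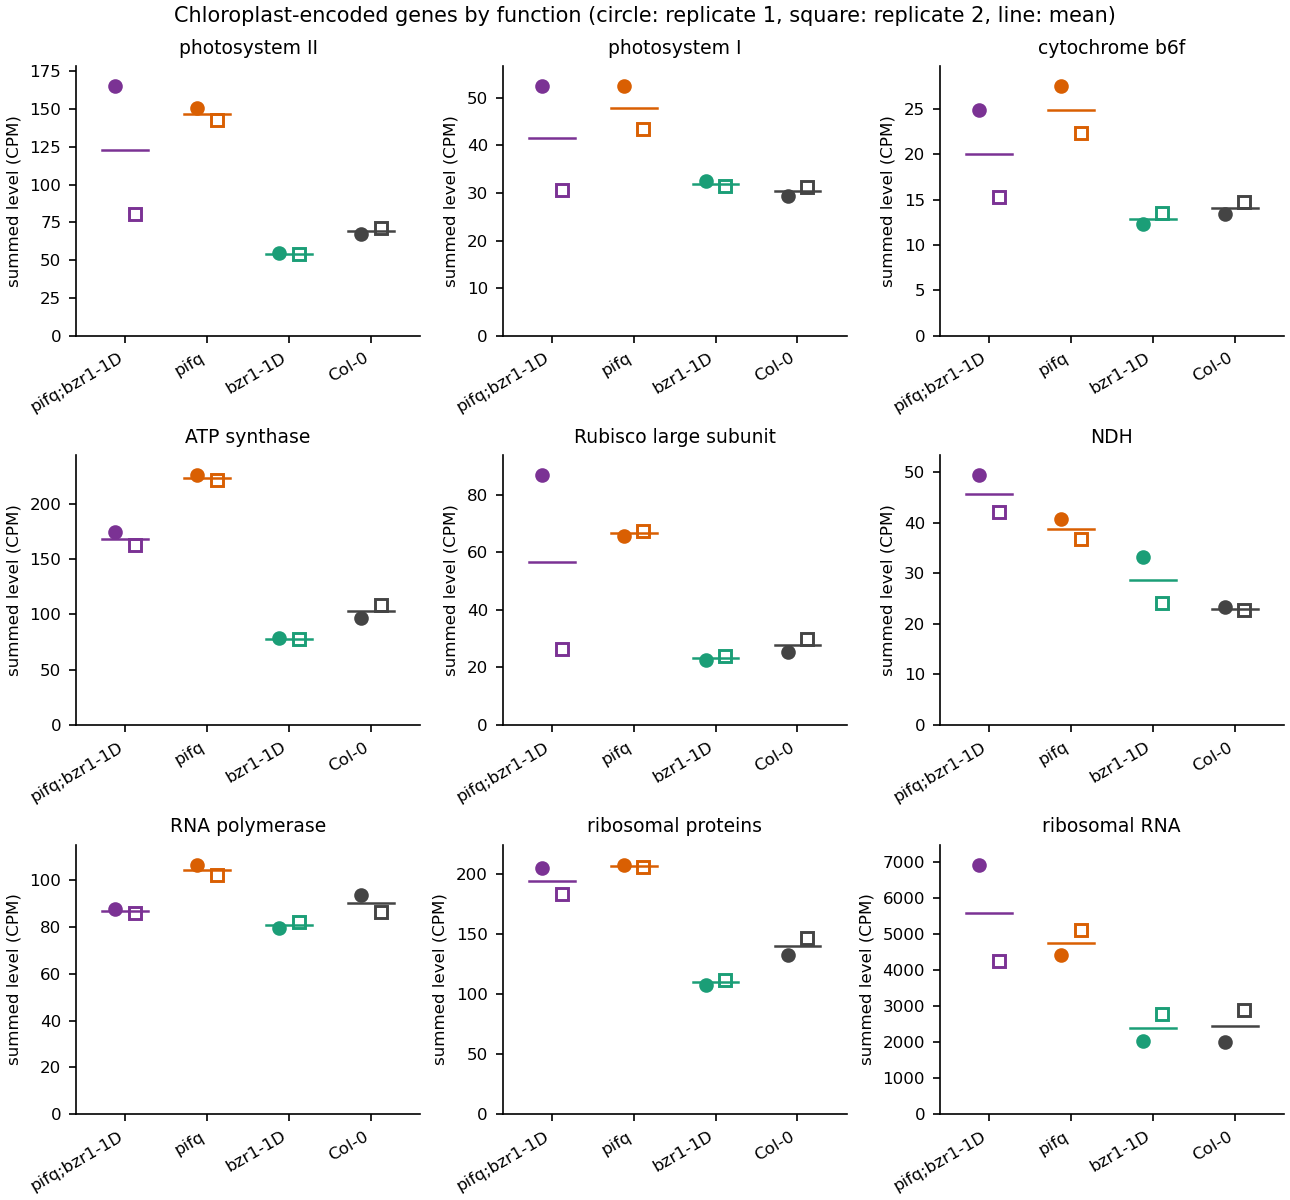
Summed levels in CPM (y axes, from 0) of the chloroplast-encoded genes of 9 function groups in each library, with inverted-repeat genes counted once, for pifq;bzr1-1D, pifq, bzr1-1D and Col-0 (x axis). Circles are replicate 1, open squares replicate 2 and lines the mean of the 2 libraries. The ATP synthase sum is 174 and 162 CPM in pifq;bzr1-1D and 226 and 222 CPM in pifq, while photosystem II is at 165 and 80.2 CPM in the 2 pifq;bzr1-1D libraries.

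The first question was what the loss of the PIFs did to chloroplast transcripts. In pifq against Col-0, most of the tested chloroplast-encoded genes were higher. Of the 108 genes, 94 passed the filter on low counts and were tested, and 77 of these were called higher and 0 lower by edgeR at an adjusted p under 0.05. Among all 21221 genes tested, 32% were called higher and 30.5% lower. At an unadjusted p under 0.05, and by DESeq2, 0 were lower as well, and all 94 log2 fold changes were positive, from 0.20 for rpoB to 1.73 for trnV (ATCG00910). Their median was 0.88, against 0.01 for all genes tested. DESeq2 called 52 of the same 77 genes, and 56 remained called when any 1 of the 8 libraries was left out.

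Photosystem II genes, which code for the water-splitting reaction centre, rose in 14 of 15 cases. The transcript of psbA, which codes for the D1 protein at the reaction centre, had 39.4 and 36.9 CPM in pifq, against 12.9 and 14.9 CPM in Col-0. Its log2 fold change was 1.55 ± 0.25 (SE, n = 2 libraries each, edgeR adjusted p = 2.89e-06). Both pifq libraries lay far above both Col-0 libraries, although DESeq2 gave an adjusted p of 0.09. The inner antenna genes behaved alike. The psbB transcript had 29.1 and 26.0 CPM in pifq, against 12.2 and 12 CPM in Col-0, a log2 fold change of 1.25 ± 0.16 (edgeR adjusted p = 3.95e-08). The psbC transcript had 22.7 and 23.5 CPM in pifq, against 10.9 and 11.3 CPM in Col-0, a log2 fold change of 1.13 ± 0.14 (edgeR adjusted p = 1.23e-08). The small subunit gene psbT had the highest value of the group at 1.68. The gene not called was psbN, which lies on the other strand within the psbB cluster.

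Photosystem I genes rose in 4 of 6 tested cases, with a median log2 fold change of 0.79. The reaction centre genes psaA and psaB had log2 fold changes of 0.79 ± 0.14 and 0.84 ± 0.12, which against the chloroplast's own protein-coding total were -0.060 and -0.013. The psaA transcript had 20.02 and 16.4 CPM in pifq, against 11.3 and 10.7 CPM in Col-0 (edgeR adjusted p = 7.64e-06), and DESeq2 gave an adjusted p of 0.0687. The gene psaI was too low to be tested, and psaJ and psaC were not called. The assembly factor genes ycf3 and ycf4, counted in this group, both rose.

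The cytochrome b6f complex, which links the photosystems, had 4 of 6 tested genes called higher. The cytochrome b6 gene petB had 10.6 and 8.89 CPM in pifq, against 4.74 and 5.84 CPM in Col-0, and its log2 fold change was 0.98 ± 0.14 (edgeR adjusted p = 2.34e-07). The small subunit gene petL had a log2 fold change of 1.68 ± 0.36 at levels of 1.24 and 1.01 CPM in pifq, against 0.349 and 0.389 CPM in Col-0.

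All 6 ATP synthase genes rose, with a median log2 fold change of 1.16. The gene atpA, for the alpha subunit of the catalytic head, had 72.6 and 70.9 CPM in pifq, against 30.2 and 31.1 CPM in Col-0, a log2 fold change of 1.30 ± 0.05 (edgeR adjusted p = 2.99e-21). The gene atpB, for the beta subunit, had 85.5 and 87.9 CPM in pifq, against 37.3 and 45.3 CPM in Col-0. Its log2 fold change was 1.16 ± 0.06, and that of atpE, for the epsilon subunit, was 1.27 ± 0.07. The large subunit of the carbon-fixing enzyme Rubisco moved with them, as rbcL had 65.7 and 67.5 CPM in pifq, against 25.5 and 29.9 CPM in Col-0. The log2 fold change of rbcL was 1.35 ± 0.21 (edgeR adjusted p = 9.85e-07, DESeq2 adjusted p = 0.055).

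Of the 11 genes of the NDH complex, which drives cyclic electron flow around photosystem I, 9 rose, with a median log2 fold change of 0.87. The subunit gene ndhB had 9.82 and 9.41 CPM in pifq, against 5.38 and 6.28 CPM in Col-0. The subunit gene ndhD was not called, with 8.81 and 6.82 CPM in pifq, against 6.75 and 5.79 CPM in Col-0. The log2 fold change of ndhD was 0.36 ± 0.19, and it passed the threshold when only the genotypes compared entered the fit (edgeR adjusted p = 0.0131). Against the chloroplast's own protein-coding total ndhD was instead called lower, at -0.48 (edgeR adjusted p = 0.0127), and ndhB was at -0.048.

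The genes of the chloroplast's own RNA polymerase had the lowest median of the function groups. All 4 were called higher, with a median log2 fold change of 0.42. The beta subunit gene rpoB had 72.7 and 69.8 CPM in pifq, against 66.4 and 62.5 CPM in Col-0, a log2 fold change of 0.20 ± 0.05 (edgeR adjusted p = 0.000262). The rpoC1 transcript had 15.7 and 15.1 CPM in pifq, against 14.2 and 13.2 CPM in Col-0, and its log2 fold change of 0.22 ± 0.08 was not called by DESeq2 (adjusted p = 0.206). The 2 other subunit genes, rpoC2 and rpoA, both had log2 fold changes of 0.61. Among the genes read mainly by nuclear-encoded polymerases in tobacco, accD, for a subunit of acetyl-CoA carboxylase, was not called (0.31 ± 0.35), whereas ycf2 rose by 1.13 ± 0.15 on the log2 scale.

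By class, 11 of 11 class I genes rose with a median log2 fold change of 0.98. So did 7 of 7 class II rows, with ycf1 counted at 2 codes, with a median of 0.82. Of the class III genes 4 of 6 rose, with a median of 0.46. The order of the medians is a description, since the differences between classes were not tested. Set against the chloroplast's own protein-coding total in place of the whole library, the median of all genes tested shifted to -0.84, and on that scale rpoB had a log2 fold change of -0.64 and rpoC1 of -0.62, both called lower, while 9 of the 77 genes remained higher and 4 were called lower.

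Chloroplast ribosomal protein genes rose in 18 of 21 tested cases, with a median log2 fold change of 0.76. The gene rpl2, for a large-subunit protein, had 69.6 and 70.7 CPM in pifq, against 40.9 and 45.5 CPM in Col-0, a log2 fold change of 0.78 ± 0.05 (edgeR adjusted p = 5.59e-15). The protease subunit gene clpP had 34.4 and 36.5 CPM in pifq, against 20.6 and 22.5 CPM in Col-0, and a log2 fold change of 0.79 ± 0.07. Against the chloroplast's own protein-coding total 2 of the 21 ribosomal protein genes were called lower and none higher, with rpl2 at -0.076 and clpP at -0.061. For tRNA genes, whose mature products are too short for such libraries, 9 of 13 tested genes rose, among them trnA (ATCG00940) in the rRNA cluster with 1.32 ± 0.11.

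The rRNA rows rose in 3 of 4 cases. The 23S row, rrn23S, had 2857 and 3473 CPM in pifq, against 1276 and 1907 CPM in Col-0, and its log2 fold change was 1.06 ± 0.16 (edgeR adjusted p = 6.48e-07). The 16S row, rrn16S, had a log2 fold change of 0.96 ± 0.11. Cytosolic rRNA, which poly(A) selection should likewise remove, has 4 rows, of which 2 were called higher in the same libraries and 2 were not called. The row AT2G01010 had 3645 and 4029 CPM in pifq, against 2442 and 3003 CPM in Col-0, with a log2 fold change of 0.56 ± 0.13 (edgeR adjusted p = 0.000364), and AT3G41768 had the same log2 fold change. The rows AT2G01020 and AT3G41979 pointed the other way, with log2 fold changes of -0.26 ± 0.13 and -0.27 ± 0.13 (edgeR adjusted p = 0.0766 and 0.0704), and AT2G01020 had 252 and 265 CPM in pifq, against 307 and 342 CPM in Col-0. The part of rRNA carry-over in the chloroplast rRNA values was not tested. With all rRNA rows left out of the table, 83 of the 99 tested rows were still called higher.

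**Figure D2:**
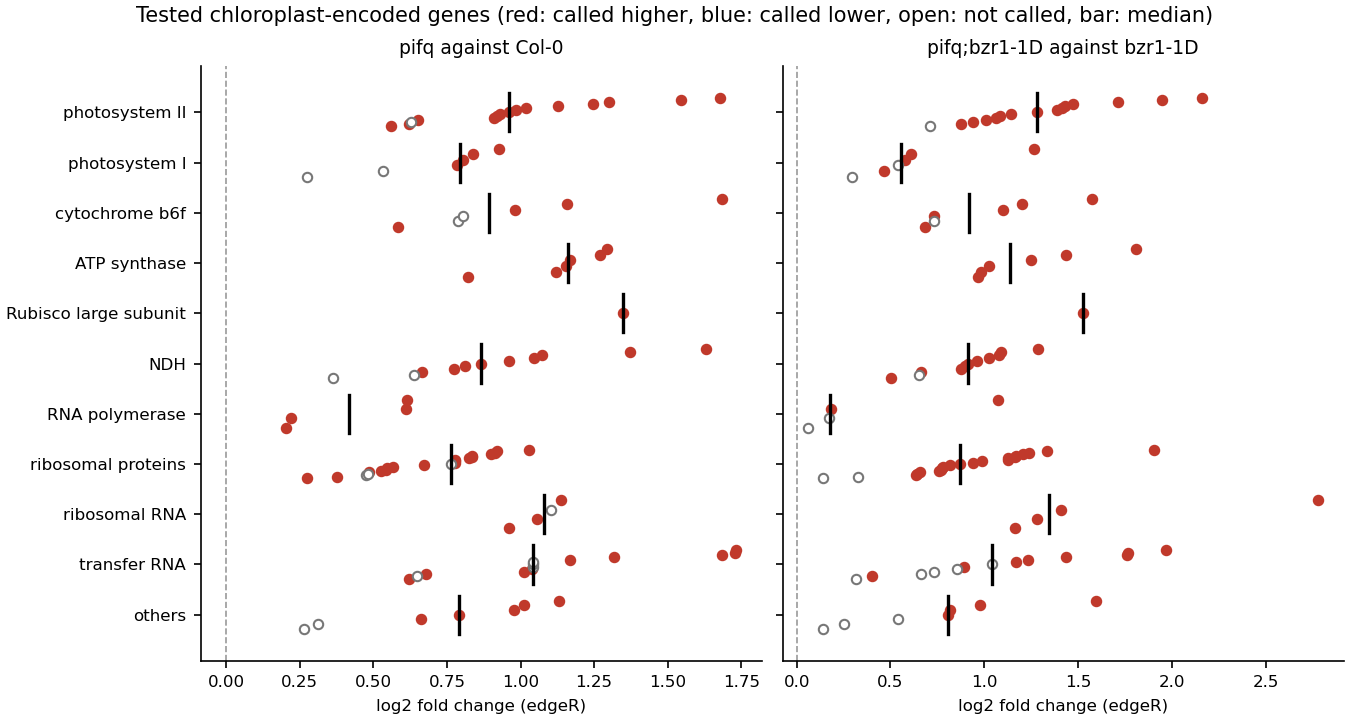
Log2 fold changes (x axes) of the tested chloroplast-encoded genes by function group (y axis), in pifq against Col-0 (left) and in pifq;bzr1-1D against bzr1-1D (right). Red points were called higher, open points were not called, and black bars are group medians. With whole libraries as the scale all points lie right of 0, and the RNA polymerase genes have the lowest median in both panels, at 0.42 and 0.18.

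The same loss of the PIFs was also compared within bzr1-1D. In pifq;bzr1-1D against bzr1-1D, 77 of 94 tested genes were called higher and 0 lower, against 33.8% higher and 31.6% lower (65.4% in either direction) among all genes tested. At an unadjusted p under 0.05, and by DESeq2, 0 were lower too, and every log2 fold change was above 0. The median log2 fold change was 0.99, against 0.02 for all genes tested. Here the 2 libraries of the combined mutant did not behave alike, and without its replicate 1 only 49 genes were called higher and 1 lower. DESeq2 called 55 of the 77 genes, and 45 remained called when any 1 library was left out. Against the chloroplast's own protein-coding total, where the median of all genes tested was -0.93, 14 of the 77 genes remained higher, 7 of them were called lower, and 13 genes in all were lower.

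All 6 ATP synthase genes rose, with a median log2 fold change of 1.14. The atpA transcript had 51.7 and 48.0 CPM in pifq;bzr1-1D, against 15.8 and 15.2 CPM in bzr1-1D, and a log2 fold change of 1.81 ± 0.06 (edgeR adjusted p = 5.91e-23). The clpP transcript had 40.1 and 38.1 CPM in pifq;bzr1-1D, against 15.1 and 12.9 CPM in bzr1-1D, and a log2 fold change of 1.6 ± 0.07. The photosystem II subunit gene psbM had 10.2 and 11.5 CPM in pifq;bzr1-1D, against 2.77 and 2.39 CPM in bzr1-1D, and a log2 fold change of 2.16 ± 0.13. For these 3 genes both libraries of the combined mutant lay well above both bzr1-1D libraries. Of the RNA polymerase genes, 2 of 4 rose. The alpha subunit gene rpoA had 6.94 and 6.02 CPM in pifq;bzr1-1D, against 3.05 and 3.75 CPM in bzr1-1D, and a log2 fold change of 1.07 ± 0.14 (edgeR adjusted p = 6.46e-08). The changes of the others were smaller. The log2 fold change of rpoB was 0.19 ± 0.05, that of rpoC1 0.06 ± 0.09 and that of rpoC2 0.17 ± 0.12, of which rpoB was called (edgeR adjusted p = 0.00138). Without replicate 1 of the combined mutant the rpoB call was lost (edgeR adjusted p = 0.115) and rpoC2 was called higher at 0.37 (edgeR adjusted p = 0.0309). Against the chloroplast's own protein-coding total the values of rpoB, rpoC1 and rpoC2 were -0.76, -0.87 and -0.75, all called lower, and that of rpoA was 0.089, not called.

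Photosystem and Rubisco transcripts separated the libraries of the combined mutant. The psbA transcript had 47.4 CPM in its replicate 1 and 9.75 CPM in its replicate 2, against 8.83 and 9.34 CPM in bzr1-1D. The rbcL transcript had 86.8 CPM in replicate 1 and 26.6 CPM in replicate 2, against 22.5 and 24.0 CPM in bzr1-1D. Replicate 2 was thus close to bzr1-1D for both genes, and replicate 1 was above pifq. With both libraries psbA had a log2 fold change of 1.95 ± 0.29 and rbcL of 1.53 ± 0.22, and without replicate 1 these were 0.21 ± 0.14 (edgeR adjusted p = 0.205) and 0.30 ± 0.09 (edgeR adjusted p = 0.0056). The psaA value was 0.46 ± 0.15 with both libraries and changed sign, to -0.24, without replicate 1.

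Set out by polymerase class, the libraries of the combined mutant compared as follows. All 11 class I genes were higher in replicate 1 than in replicate 2 by more than 0.5 on the log2 scale, with a median of 0.99 and a range of 0.68 to 2.27. Of the 7 class II rows, with ycf1 at 2 codes, 3 passed that limit, with a median of 0.07. Of the class III genes 2 of 6 passed, with a median of 0.10. Genes without a class passed as well, among them petD at 1.15 and ndhH at 1.07. By function group, 8 of 15 photosystem II, 4 of 6 photosystem I and 4 of 6 cytochrome b6f genes passed. So did 5 of 11 NDH, 5 of 21 ribosomal protein, 4 of 13 tRNA and 2 of 4 rRNA genes. ATP synthase had 1 of 6, RNA polymerase 0 of 4 and the other genes 5 of 7, and rbcL passed. The same ratio had medians of 0.16 in pifq, 0.02 in bzr1-1D and -0.06 in Col-0 for class I genes. These ratios compare single libraries and carry no test. Replicate 1 was the deeper library, with about 29517900 gene counts against 16109200 in replicate 2, and it held more cytosolic rRNA, with 6409 CPM in replicate 1 and 3353 CPM in replicate 2 at AT2G01010. The part of depth and rRNA in the difference between these libraries was not tested.

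Chloroplast rRNA also differed between these libraries. The 23S row had 4272 CPM in replicate 1 and 2182 CPM in replicate 2 of the combined mutant, and the 16S row 2626 and 2041 CPM. The 5S row, rrn5S, had 14.1 CPM in replicate 1 and 0.807 CPM in replicate 2, and all 6 other libraries lay between 0.586 and 2.22 CPM, so its values in the combined mutant rest on 1 library. The nuclear genes for photosystem II subunits showed no such split, with sums of 8500 and 9136 CPM in replicate 1 and replicate 2.

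**Figure D3:**
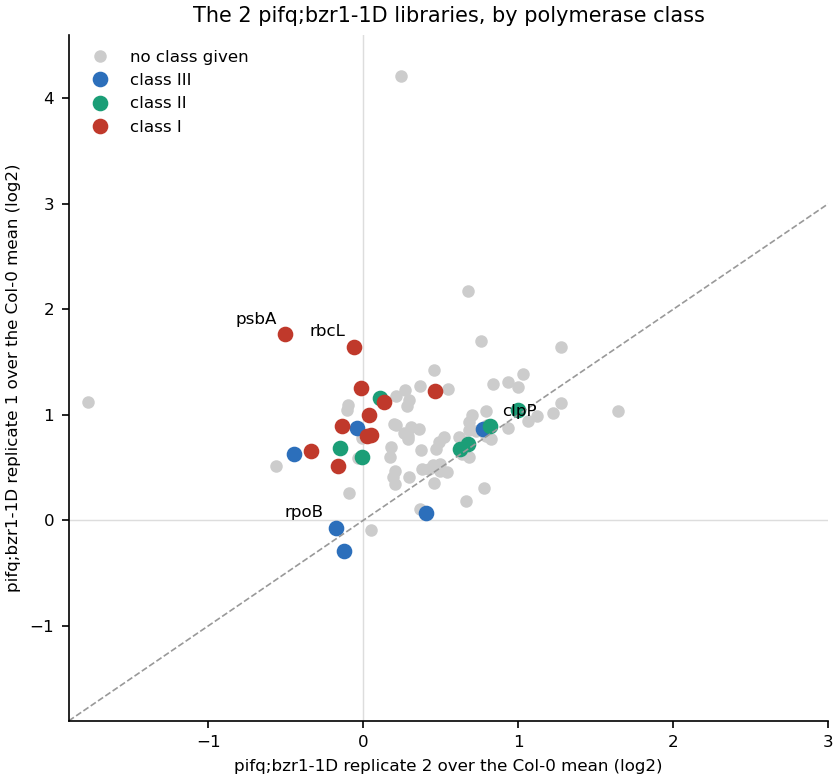
Each tested chloroplast-encoded gene in the 2 pifq;bzr1-1D libraries, as the log2 ratio of replicate 2 (x axis) and of replicate 1 (y axis) to the Col-0 mean, both with 0.1 CPM added. Colours give the polymerase class known from tobacco, and the dashed line marks equal values. Class I genes lie above the line, by 0.68 to 2.27, and rpoB and clpP lie near it.

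The effect of bzr1-1D alone was called for few chloroplast genes, and with whole libraries as the scale most of these calls were downward. In bzr1-1D against Col-0, 15 of 94 tested genes were called lower and 2 higher, fewer in both directions than the 26.1% lower and 30.8% higher (56.8% in either direction) of all genes tested. The median log2 fold change of the chloroplast genes was -0.11, against 0.02 for all genes tested. The spread was estimated from all 8 libraries, among them the 2 unlike ones of pifq;bzr1-1D. Leaving out either of these raised the number called lower. DESeq2 called 10 of the 15 lower genes and neither of the higher ones, and 8 of the 15 remained called when any 1 library was left out. Against the chloroplast's own protein-coding total, where the median of all genes tested was 0.26, 6 genes were higher and 4 lower. The chloroplast genes had a median of 0.12 there, and 4 of the 15 lower calls remained. That scale takes out any fall that the protein-coding genes share, so it gives only changes relative to their sum. The sum itself, counted by rows, was 506 and 502 CPM in bzr1-1D, against 584 and 625 CPM in Col-0.

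Of the ATP synthase genes, 2 of 6 fell. The atpA transcript had 15.8 and 15.2 CPM in bzr1-1D, against 30.2 and 31.1 CPM in Col-0, so both bzr1-1D libraries were at about the same lower level. Its log2 fold change was -0.95 ± 0.07 (edgeR adjusted p = 2.09e-14). The neighbouring gene atpF had 5.74 and 5.97 CPM in bzr1-1D, against 8.14 and 9.88 CPM in Col-0, a log2 fold change of -0.57 ± 0.14. The atpB transcript, from another cluster, had 37.0 and 37.7 CPM in bzr1-1D, against 37.3 and 45.3 CPM in Col-0, and was not called.

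Of the 15 tested photosystem II genes, 3 fell, psbM, psbK and psbI, which code for small subunits. The psbM transcript had 2.77 and 2.39 CPM in bzr1-1D, against 4.68 and 4.67 CPM in Col-0, a log2 fold change of -0.83 ± 0.15 (edgeR adjusted p = 1.85e-05). The psbK transcript had 3.05 and 3.25 CPM in bzr1-1D, against 5.38 and 5.50 CPM in Col-0, a log2 fold change of -0.76 ± 0.14. Its neighbour psbI, named after its values were seen, fell by 0.63. The psbA transcript had 8.83 and 9.34 CPM in bzr1-1D, against 12.9 and 14.9 CPM in Col-0, and its log2 fold change of -0.56 ± 0.34 was not called (edgeR adjusted p = 0.156). Without the 2 pifq;bzr1-1D libraries, which widen the estimated spread of psbA, it was called lower at -0.59 (edgeR adjusted p = 5.25e-07). The rbcL gene was in the same position, at -0.21 ± 0.25 with all libraries and at -0.23 without those 2 (edgeR adjusted p = 0.0027).

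Ribosomal protein genes fell in 7 of 21 cases, by 0.24 to 1.05 on the log2 scale, a share near the 26.1% lower among all genes tested. Against the chloroplast's own protein-coding total, edgeR called none of the 21 lower, and their median was -0.037. Of these, 6 are neighbours in the TAIR10.1 chloroplast annotation, namely rpl14, rpl16, rps3, rpl22, rps19 and rpl2. The rpl2 transcript had 28.8 and 29.6 CPM in bzr1-1D, against 40.9 and 45.5 CPM in Col-0, a log2 fold change of -0.53 ± 0.06 (edgeR adjusted p = 2.29e-09). The rps3 transcript had 9.61 and 9.47 CPM in bzr1-1D, against 12.4 and 11.6 CPM in Col-0, a log2 fold change of -0.31 ± 0.09. The lowest value was that of rpl33, at -1.05 ± 0.34 with 0.43 and 0.535 CPM in bzr1-1D, against 0.931 and 1.17 CPM in Col-0, and its call was lost without bzr1-1D replicate 1 or Col-0 replicate 2 (edgeR adjusted p = 0.0829 and 0.0538).

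The protease gene clpP fell by 0.58 ± 0.08 on the log2 scale, with 15.1 and 12.9 CPM in bzr1-1D, against 20.6 and 22.5 CPM in Col-0. The RNA polymerase gene rpoB fell by 0.16 ± 0.05, with 56.2 and 57.3 CPM in bzr1-1D, against 66.4 and 62.5 CPM in Col-0 (edgeR adjusted p = 0.00346). Without Col-0 replicate 1 that call was lost (edgeR adjusted p = 0.0939). The remaining gene called lower was a tRNA gene, trnS (ATCG00090).

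Both genes called higher in bzr1-1D were uncertain. The ndhD transcript had 14.5 and 7.08 CPM in bzr1-1D, against 6.75 and 5.79 CPM in Col-0, a log2 fold change of 0.79 ± 0.18. Most of this came from replicate 1 of bzr1-1D, without which the value was 0.18 (edgeR adjusted p = 0.375). The ycf1 row ATCG01130, for a large protein of the inner envelope, had 7.31 and 6.42 CPM in bzr1-1D, against 4.91 and 6.47 CPM in Col-0. The groups overlapped, and the log2 fold change of 0.34 ± 0.15 was no longer called without Col-0 replicate 1 (0.10, edgeR adjusted p = 0.668), without bzr1-1D replicate 1 (0.24, adjusted p = 0.291) or without either pifq library (0.31).

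The bzr1-1D allele was also compared in the absence of the PIFs. In pifq;bzr1-1D against pifq, 15 of 94 tested genes were called higher and 13 lower, beside 28.1% higher and 27.8% lower among all genes tested, and the median log2 fold change was -0.04, against -0.01 for all genes tested. DESeq2 called 3 of the 15 higher genes and 8 of the 13 lower ones. Against the chloroplast's own protein-coding total, where the median of all genes tested was 0.12, 11 of the 15 higher calls remained. Of the 13 lower calls only 2 remained on that scale, so most of the falls given below depend on the scale. Without replicate 1 of the combined mutant 4 genes were higher and 29 lower, and without its replicate 2 there were 22 higher and 10 lower.

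ATP synthase genes fell in 4 of 6 cases, and atpA and atpB stayed called when either library of the combined mutant was left out. The atpA transcript had 51.7 and 48.0 CPM in pifq;bzr1-1D, against 72.6 and 70.9 CPM in pifq, a log2 fold change of -0.44 ± 0.05 (edgeR adjusted p = 1.51e-09). The atpB transcript had 68.4 and 66.0 CPM in pifq;bzr1-1D, against 85.5 and 87.9 CPM in pifq, a log2 fold change of -0.29 ± 0.05 (edgeR adjusted p = 2.47e-05). For both genes each library of the combined mutant lay below each pifq library and above each Col-0 library.

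RNA polymerase genes fell in 3 of 4 cases. The rpoB transcript had 61.4 and 57.1 CPM in pifq;bzr1-1D, against 72.7 and 69.8 CPM in pifq, a log2 fold change of -0.18 ± 0.05 (edgeR adjusted p = 0.00149). The rpoC1 and rpoC2 values were -0.32 ± 0.09 and -0.31 ± 0.11, and without replicate 1 of the combined mutant the calls of both were lost (edgeR adjusted p = 0.07 and 0.445). That of rpoC2 was also lost without pifq replicate 1 (edgeR adjusted p = 0.0574). The gene next to rpoC2 in the annotation, rps2, for a small-subunit ribosomal protein, had 1.12 and 1.24 CPM in pifq;bzr1-1D, against 2.06 and 1.99 CPM in pifq. Its log2 fold change was -0.72 ± 0.25, and the call was lost without replicate 1 of the combined mutant or of pifq (edgeR adjusted p = 0.127 and 0.0511).

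Among the genes called higher, psbM had 10.2 and 11.5 CPM in pifq;bzr1-1D, against 8.69 and 8.24 CPM in pifq, a log2 fold change of 0.41 ± 0.10 (edgeR adjusted p = 0.000972). The ndhD transcript had 15.2 and 12.6 CPM in pifq;bzr1-1D, against 8.81 and 6.82 CPM in pifq, a log2 fold change of 0.93 ± 0.17 (edgeR adjusted p = 1.61e-05, DESeq2 adjusted p = 0.0601). Both libraries of the combined mutant were above both pifq libraries for each of these genes. The photosystem genes psbJ (0.76 ± 0.17) and psaC (0.89 ± 0.25) and the protease gene clpP (0.22 ± 0.06) lost their calls without replicate 1 of the combined mutant, at adjusted p of 0.154, 0.153 and 0.127 by edgeR. The psaC call was also lost without pifq replicate 2 (0.44, edgeR adjusted p = 0.165), and that of clpP without pifq replicate 1 (0.15, edgeR adjusted p = 0.103). The 5S row's value of 2.74 ± 0.49 turned to -0.74 without replicate 1 of the combined mutant.

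The gene trnA (ATCG00940) within the rRNA cluster fell to 10.2 and 10.4 CPM in pifq;bzr1-1D, against 18.0 and 16.4 CPM in pifq, a log2 fold change of -0.66 ± 0.10 (edgeR adjusted p = 1.85e-06). The 23S row beside it was not called, at 0.10 ± 0.16 with both libraries, -0.49 without replicate 1 and 0.48 without replicate 2 of the combined mutant. For psbA and rbcL the values were -0.16 ± 0.22 and -0.03 ± 0.19 with both libraries, -1.93 and -1.28 without replicate 1, and 0.36 and 0.43 without replicate 2, so no direction can be given for them.

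**Figure D4:**
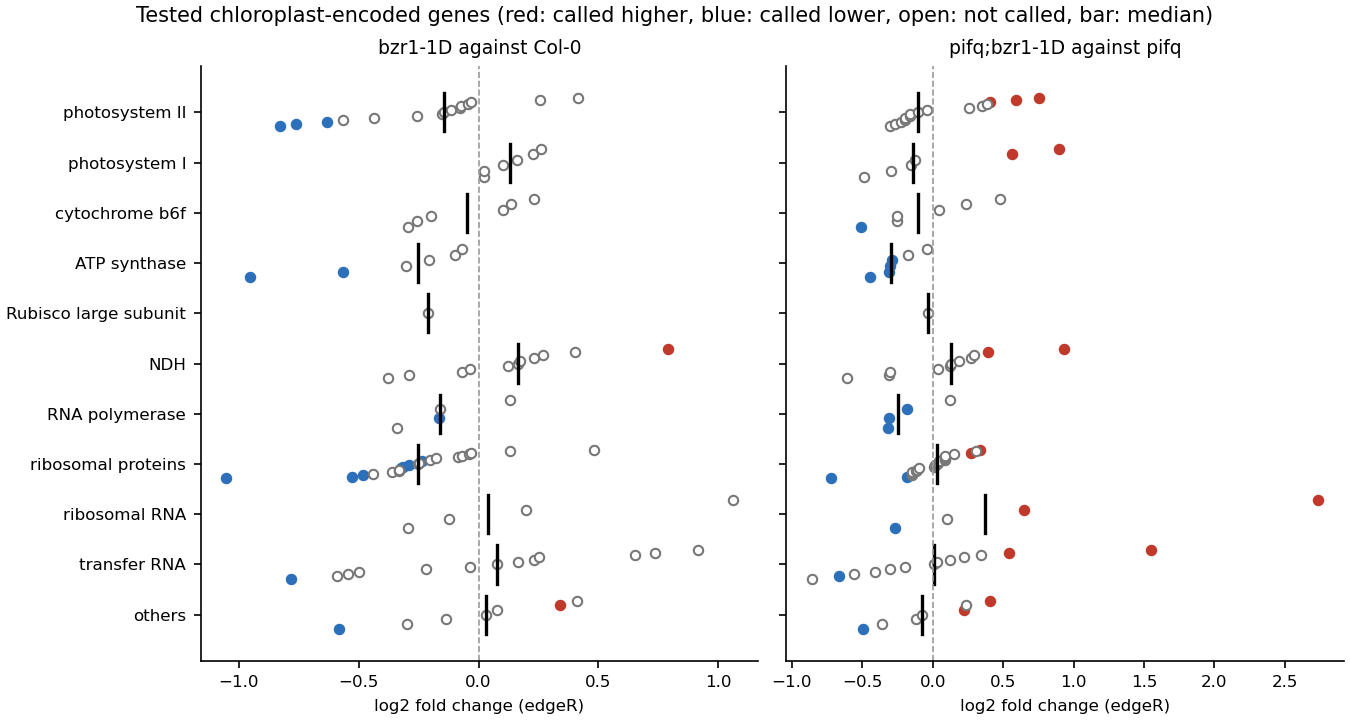
Log2 fold changes (x axes) of the tested chloroplast-encoded genes by function group (y axis), in bzr1-1D against Col-0 (left) and in pifq;bzr1-1D against pifq (right). Red points were called higher, blue points lower, open points were not called, and black bars are group medians. The ATP synthase medians are -0.25 and -0.29, and the 5S rRNA row lies farthest right in both panels, at 1.06 and 2.74.

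The difference between the 2 effects of bzr1-1D (pifq background less wild-type background) is the interaction term. It was called for 15 genes upward and 2 downward, beside 21.9% and 26.9% of all genes tested. The median was 0.13, against -0.06 for all genes tested. Of the 15, 6 remained called when any 1 library was left out, and of the 2, 1 remained. The lowest adjusted p was that of clpP, at 0.81 ± 0.10 (edgeR adjusted p = 2.9e-08), whose bzr1-1D effect was -0.58 with the PIFs and 0.22 without them. The psbM gene had 1.24 ± 0.18 (edgeR adjusted p = 8.95e-07), and atpA 0.51 ± 0.08 (edgeR adjusted p = 3.56e-06), as the atpA fall of 0.95 with the PIFs was 0.44 without them. In the other direction trnA (ATCG00940) had -0.92 ± 0.16 (edgeR adjusted p = 1.8e-05). For psbA and rbcL the interaction was 0.40 ± 0.41 and 0.18 ± 0.31, not called, and without replicate 1 of the combined mutant it turned to -1.34 and -1.05.

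Nuclear genes for the same complexes, from lists drawn up with earlier results known, give the setting. The ATP synthase and cytochrome b6f list also holds PETE1 and PETE2, for the electron carrier plastocyanin, which is part of neither complex. In pifq against Col-0 all listed nuclear genes for photosystem I (12 of 12, median log2 fold change 1.15), photosystem II (9 of 9, 0.96), ATP synthase and cytochrome b6f (6 of 6, 0.91), NDH (4 of 4, 0.66), the Rubisco small subunit (4 of 4, 0.57) and plastid ribosomal proteins (32 of 32, 0.58) were called higher. The chloroplast medians of the matching groups were 0.79 for photosystem I, 0.96 for photosystem II, 1.16 for ATP synthase, 0.89 for cytochrome b6f, 0.87 for NDH, 1.35 for rbcL and 0.76 for ribosomal proteins. Mitochondrial genes, by contrast, were called higher in 4 and lower in 1 of 51 tested rows, with a median of 0.07. Among all genes tested, 32% were called higher and 30.5% lower.

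The nuclear genes of plastid transcription were called higher in 18 of 20 cases in pifq, beside 32% of all genes tested. The phage-type polymerase gene RPOTp had 128 and 132 CPM in pifq, against 63.3 and 61.6 CPM in Col-0, a log2 fold change of 1.12 ± 0.04 (edgeR adjusted p = 8.63e-22). The sigma factor gene SIG2, which directs the plastid-encoded polymerase to certain genes, had 122 and 115 CPM in pifq, against 69.7 and 70.1 CPM in Col-0, and SIG6 was not called (0.08 ± 0.04). In pifq;bzr1-1D SIG2 was at 75.5 and 73.3 CPM and 16 of the 20 listed genes were called lower against pifq, with a median of -0.50. Another 1 was called higher, and among all genes tested 27.8% were lower and 28.1% higher. The highest value of the list was that of SIG1, at 0.09, with 147 and 148 CPM in pifq;bzr1-1D, against 143 and 148 CPM in pifq. Between the libraries of the combined mutant this list did not split, with sums of 1205 and 1194 CPM in replicate 1 and replicate 2.

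In bzr1-1D against Col-0, the nuclear plastid ribosomal protein genes were called lower in 20 and higher in 2 of 32 cases, with a median of -0.13, beside the chloroplast ribosomal protein median of -0.25. Among all genes tested, 26.1% were called lower and 30.8% higher. Nuclear photosystem I genes were called higher in 9 and lower in 1 of 12 cases (median 0.15). The 6 tested chloroplast photosystem I genes had a median of 0.13, with 0 called. NDH medians were 0.16 for nuclear and 0.17 for chloroplast genes. In other pairs the medians differed in sign. Medians were 0.10 for nuclear and -0.14 for chloroplast photosystem II genes, and 0.55 for Rubisco small subunit genes, beside -0.21 for rbcL. Of the Rubisco small subunit genes 3 were called higher and 1 lower. The lower one, RBCS1A, was the most abundant of the list and had a log2 fold change of -0.33, the same direction as rbcL. The sum of the list was 13445 and 13586 CPM in bzr1-1D, against 12301 and 12343 CPM in Col-0. The nuclear ATP synthase and cytochrome b6f list had 0.03, with 2 genes called higher and 2 lower. The chloroplast medians were -0.25 for ATP synthase and -0.05 for cytochrome b6f genes. The extremes of the nuclear list were the plastocyanin genes PETE1 (-0.50) and PETE2 (0.14). The cytochrome b6f gene PETC was at 335 and 317 CPM in bzr1-1D, against 377 and 382 CPM in Col-0, the same direction as the chloroplast median.

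**Figure D5:**
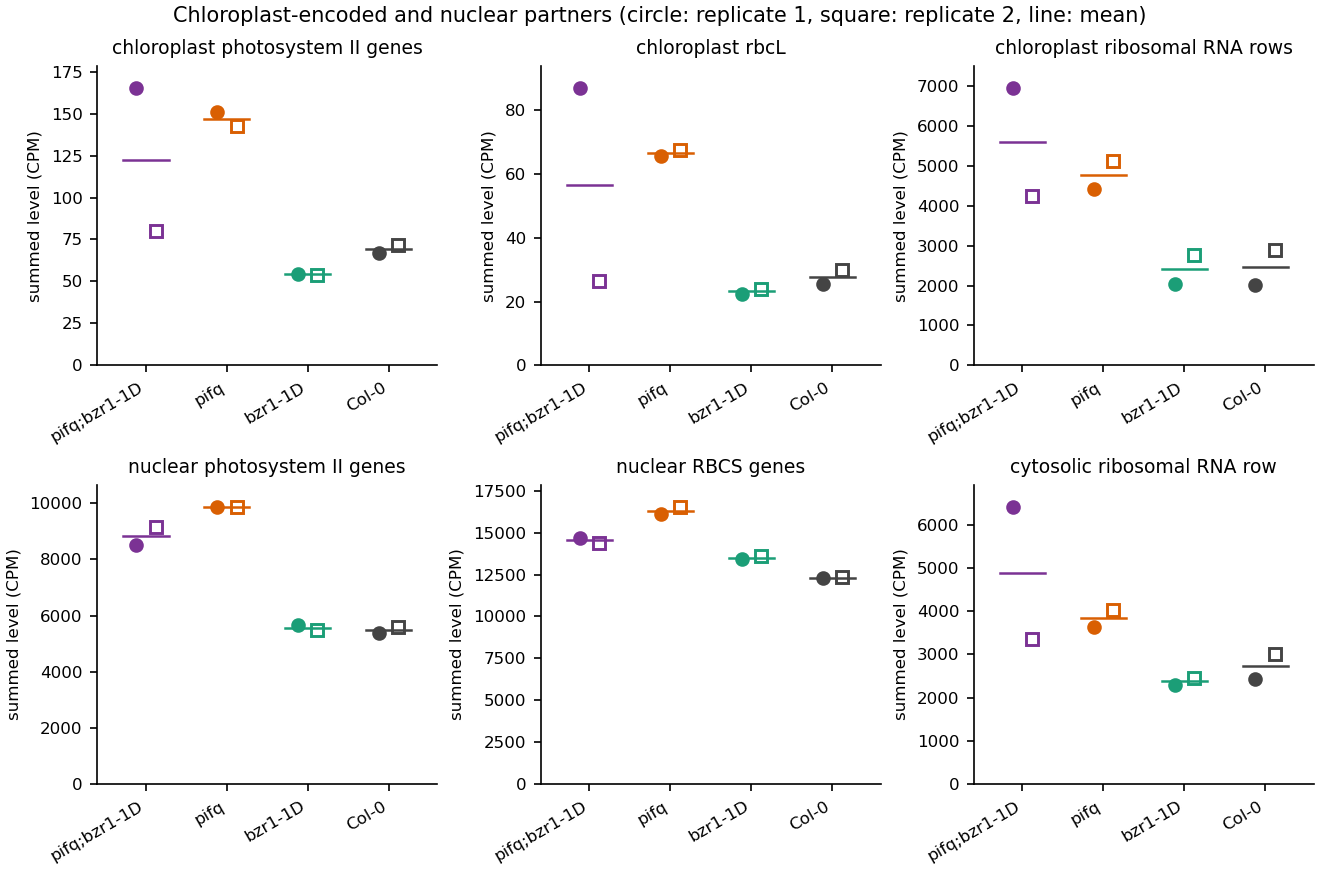
Levels in CPM (y axes, from 0) in each library of pifq;bzr1-1D, pifq, bzr1-1D and Col-0 (x axis) for chloroplast-encoded sums (top) and for nuclear-encoded partners and a cytosolic rRNA row (bottom). Circles are replicate 1, open squares replicate 2 and lines the means. The nuclear photosystem II sum is 8500 and 9136 CPM in the 2 pifq;bzr1-1D libraries, where the chloroplast sum is 165 and 80.2 CPM.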

How the data were processed

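RNA from 8 libraries, 2 per genotype, was counted per gene. The deposited values are whole-number counts, 1 file per library, without normalization. Libraries were made from total RNA with the TruSeq RNA kit, per the labels' protocols, and the submitters' processing notes list TopHat, HTSeq and TAIR9. Tool versions, use of strand and handling of multiply mapped reads were not given in the sources used. Overlapping genes and genes facing a transcript on the other strand, such as psbN, are uncertain.

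The reference annotation was TAIR10.1, another build, so no coordinates, lengths or sequences are given. It pairs only 6 ATCG codes with a description. The symbols and function groups of the other codes were assigned from general knowledge of the TAIR locus names, not from the files. As a check, 129 of the 131 symbols used occur in the TAIR10.1 chloroplast annotation, the 6 described codes match (ATCG00430 under the older name of ndhK, a photosystem II protein G), and 70 of 70 steps between 71 single-copy protein genes run in the same order. Polymerase classes are those known from tobacco. The members and lists were chosen with earlier results of these data known.

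Tests used edgeR 4.0.16 under R 4.3.3, with the quasi-likelihood F test, TMM factors of 0.942 to 1.04 and filterByExpr, which left 21221 genes. One fit held all 8 libraries with a mean per genotype (4 residual degrees of freedom). P-values were adjusted over all genes by Benjamini-Hochberg. The standard error (SE) is the absolute log2 fold change divided by the square root of F. Of the 124 member rows, 107 were tested. The 17 others were rps16, psaI, ccsA, ATCG00870, ATCG01270 and 12 tRNA rows. On counts simulated from the library totals and mean levels, the fit of pifq against Col-0 was checked for recovery of known changes. The simulation gave every gene the same dispersion, set above the common dispersion of 0.00078 estimated from the data. It therefore does not stand for the small spread of most genes here or for the uneven replicates of the chloroplast genes. A count of 0 allows up to 3 counts (95% confidence), which is 0.0872 to 0.186 CPM and covers counting error only.

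The genes named are, per function group, the 3 with the highest mean CPM, per contrast the 5 highest and 5 lowest log2 fold changes among members, all rpo genes, and rbcL, psbA, accD, clpP, ycf1, ycf2 and matK, with some left out for length. The genes atpF, psbI, psbN, ndhH, ycf3, ycf4, rpl14, rpl22, rps19, SIG1, SIG2, SIG6, RPOTp, RBCS1A, PETC, PETE1 and PETE2 were added after their values were seen. Alternatives were RLE factors, nuclear library sizes, the chloroplast total as library size, no filter, DESeq2 1.42.0, only the genotypes compared, a replicate block and each library left out. Added after the data were seen were the chloroplast protein-coding total as library size, each inverted-repeat gene once, no rRNA rows and no pifq;bzr1-1D libraries.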

Additional observations from a re-analysis of the deposited data

Results flagged for a closer look

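The effect of bzr1-1D on a chloroplast gene differed between the backgrounds without and with the PIFs, by the interaction term of edgeR, for 17 of 94 genes. That is a smaller share than the 48.8% called among all genes tested. The differences, given as log2 values without the PIFs minus with them, were upward for 15. Among photosystem II, ATP synthase and other genes they were 1.24 for psbM, 0.87 for psbJ, 0.81 for clpP, 0.56 for psbK, 0.54 for cemA and 0.51 for atpA. Among ribosomal protein genes they were 1.07 for rpl33, 0.44 for rpl14, 0.40 for rps3, 0.37 for rpl32, 0.35 for rpl2 (ATCG00830) and 0.33 for rpl16. Among RNA genes they were 1.09 for trnV (ATCG00450), 0.81 for trnS (ATCG00090) and 0.45 for rrn16S (ATCG00920). The 2 downward differences were -0.92 for trnA (ATCG00940) and -0.44 for rpoC2.

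Without replicate 1 of the combined mutant pifq;bzr1-1D, 6 of the 15 upward calls and 1 of the 2 downward calls remained, and 17 genes in all were called downward. Without its replicate 2 all 17 calls remained and 29 genes were called upward. DESeq2 called 4 of the 15 and 1 of the 2. Against the chloroplast's own protein-coding total 2 of the 15 and 1 of the 2 remained.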

How the results depend on the processing

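Counts here are of rows, with both inverted-repeat copies. Of 1410 values for 77 pairs of a gene and a contrast, 1205 kept direction and call, 130 lost the call, 25 gained it and 50 changed sign. The scale mattered most, and the part of each setting in a change was not tested beyond its construction. With the chloroplast total as library size, which sets each gene against the rRNA, calls upward and downward numbered 0 and 0 in pifq against Col-0, 0 and 0 in bzr1-1D against Col-0, 2 and 0 in pifq;bzr1-1D against pifq, 3 and 12 in pifq;bzr1-1D against bzr1-1D, and 0 and 0 for the interaction. With the chloroplast protein-coding total, added after the data were seen, they were 10 and 7 in pifq against Col-0, 9 and 4 in bzr1-1D against Col-0, 16 and 14 in pifq;bzr1-1D against bzr1-1D, with 3 lower in pifq;bzr1-1D against pifq and 4 higher for the interaction.

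Against the protein-coding total, these log2 fold changes turned in pifq against Col-0: psaB -0.013, psaA -0.060, ndhB (ATCG00890) -0.048, ndhD -0.48, rpl2 (ATCG00830) -0.076, rpoB -0.64, rpoC1 -0.62, rpoC2 -0.22, rpoA -0.24, accD -0.54 and clpP -0.061. In bzr1-1D against Col-0 rbcL turned to 0.013 and rpoB to 0.075, and in pifq;bzr1-1D against bzr1-1D rpoB to -0.76, rpoC1 to -0.87, rpoC2 to -0.75 and psaA to -0.60, as did the rbcL interaction (-0.10). Against the whole chloroplast total, values in pifq against Col-0 were psaB -0.20, psaA -0.25, petB -0.061, ndhB -0.23, ndhD -0.67, rpl2 -0.26, rpoB -0.84, rpoC1 -0.817, rpoC2 -0.42, rpoA -0.43, accD -0.73, clpP -0.25 and rrn16S (ATCG00920) -0.046. In pifq;bzr1-1D against pifq rrn23S (ATCG00950) was -0.19, and in pifq;bzr1-1D against bzr1-1D rbcL was -0.025, rpoB -1.082, rpoC1 -1.16, rpoC2 -1.01, rpoA -0.22, rrn23S -0.052 and psaA -1.0. The interaction was -0.20 for psbA and -0.33 for rbcL.

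With 1 library left out, counts higher ranged from 71 to 93 in pifq against Col-0 (89 with all libraries), 1 to 8 in bzr1-1D against Col-0 (2), 6 to 27 in pifq;bzr1-1D against pifq (19), 60 to 94 in pifq;bzr1-1D against bzr1-1D (89) and 7 to 34 for the interaction (17). Counts lower ranged from 0 to 0, 11 to 24 (16), 12 to 33 (16), 0 to 1 (0) and 2 to 20 (3) in the same order. Without pifq replicate 1, accD in pifq against Col-0 turned to -0.17 (0.66 without replicate 2) and rrn23S in pifq;bzr1-1D against pifq to -0.06. Without pifq;bzr1-1D replicate 1, rrn5S (ATCG00970) turned to -0.74 and rrn23S to -0.49 against pifq, psaA to -0.24 against bzr1-1D, and the interaction of psbA to -1.34 and of rbcL to -1.05, while psbA and rbcL against pifq were -1.93 and -1.28. Without its replicate 2, psbA turned to 0.36 and rbcL to 0.43 against pifq, where rrn5S was 3.39 and rrn23S 0.48, psaA was 0.77 against bzr1-1D, and the interaction was 0.95 for psbA and 0.67 for rbcL.

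DESeq2 gave 0 higher in bzr1-1D against Col-0, 3 up and 10 down in pifq;bzr1-1D against pifq and 5 higher for the interaction. In bzr1-1D against Col-0, RLE factors gave 1 higher, no filter 6, only the genotypes compared 4 higher and 25 lower, and no pifq;bzr1-1D libraries 4 higher. No filter gave 6 lower for the interaction. The replicate block gave 92 higher in pifq against Col-0, 2 higher and 18 lower in bzr1-1D against Col-0, 18 and 19 in pifq;bzr1-1D against pifq, 89 higher in pifq;bzr1-1D against bzr1-1D and 17 and 3 for the interaction. Deviations of libraries with the same number correlated between -0.02 and 0.03 over all genes, and between -0.334 and 0.21 over the 107 tested chloroplast rows, so the numbers were not taken to pair the libraries.

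The mean chloroplast share depends on the rows counted. Without rRNA and tRNA rows it was 0.0902% in pifq;bzr1-1D, 0.104% in pifq, 0.0504% in bzr1-1D and 0.0605% in Col-0. Without the most abundant row it was 0.750% in pifq, 0.391% in bzr1-1D and 0.396% in Col-0. With each inverted-repeat gene once it was 0.644% in pifq;bzr1-1D, 0.575% in pifq, 0.288% in bzr1-1D and 0.302% in Col-0. Single libraries ranged from 0.934% to 1.5% in pifq;bzr1-1D, 0.998% to 1.14% in pifq, 0.460% to 0.610% in bzr1-1D and 0.464% to 0.646% in Col-0. Depth limits the 17 rows not tested, for which no difference was detectable here.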
